A study of Mus musculus with 6 samples.

Results

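A set of 9 genes that build, erase or read chromatin marks, and that have been linked to lymphomas of germinal center (GC) B cells, were followed in GC and naive B cells. They were taken by symbol as a list of genes with known roles: the acetyltransferases Crebbp and Ep300, the demethylases Kdm6a and Kdm1a, the methyltransferase Setd2, the remodeler subunits Arid1a and Smarca4, and the corepressor subunits Hdac3 and Ncor1. All 9 symbols were found among the 39179 Ensembl gene identifiers of the expression table. Expression was measured by RNA-Seq of total RNA in B cells sorted from the Peyer's patches of the ileum of wild-type female C57BL/6 mice aged 12 wk. GC B cells (Fas+GL7+) and naive, or resting, B cells (Fas-GL7-) each had 3 replicates, every one a pool of several littermates. The labels name no transgene or treatment for either population.

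In the GC, B cells divide rapidly, mutate their antibody genes and are selected for affinity, and the repressor Bcl6 holds this program in place while the cells remain there. The 9 genes work on both sides of that balance. CBP and p300, the products of Crebbp and Ep300, acetylate histones at enhancers. The corepressor that holds Hdac3 and Ncor1 is recruited by Bcl6 and removes such acetyl groups. Kdm6a takes repressive methyl groups off histone H3 lysine 27, Kdm1a takes methyl groups off lysine 4, and Setd2 adds the third methyl group to lysine 36 behind the transcribing polymerase. Smarca4 (BRG1) is the motor of BAF remodelers, which slide and evict nucleosomes, and Arid1a is a large subunit that helps to place them.

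Fas, one of the proteins used for the sort, was at 114 ± 5.55 TPM in GC pools and 3.22 ± 0.314 TPM in naive pools (SD, n = 3 each). TPM, a length-corrected level relative to the whole pool, is the deposited FPKM (fragments per kilobase of transcript, relative to all mapped fragments) divided by the total of its pool and scaled to a common total. Summed TPM of 6 GC B cell markers was between 1400 and 1420 in GC pools and between 51.6 and 57.2 in naive pools, and that of 5 naive B cell markers was between 107 and 117 in GC pools and between 1350 and 1410 in naive pools. The 6 B cell markers summed to between 3950 and 3990 TPM in GC pools and between 5880 and 6030 TPM in naive pools. Of these, 5 were lower in GC B cells and 1, Ms4a1, was higher. Myeloid markers summed to at most 2.7 TPM in GC pools and 7.87 TPM in naive pools. The sum of 8 epithelial markers was between 52.1 and 113 TPM in GC pools, with GC replicate 2 highest, and between 131 and 169 TPM in naive pools, and 5 of the 8 were lower and 1 was higher in GC B cells. The sum of 5 stromal markers was between 65.4 and 75.5 TPM in GC pools and between 293 and 325 TPM in naive pools, with 2 of 5 lower in GC B cells. These 2 were Pecam1 and Cr2, which B cells also express and which made up nearly the whole sum, while Col1a1, Col1a2 and Pdgfra were at most at 0.17 TPM in any pool. The 7 T cell markers, of which only Lck was called (higher in GC B cells), summed to between 129 and 141 TPM in GC pools and between 65.8 and 69.7 TPM in naive pools. Cd4, the highest of the other T cell markers in any GC pool, reached 1.83 TPM there. The 5 plasma cell markers summed to between 131 and 135 TPM in GC pools and between 192 and 212 TPM in naive pools. Of these, 3 were lower in GC B cells (Xbp1, Irf4 and Sdc1) and 1, Prdm1, was higher (5.01 against 0.955 TPM). Xbp1 (104 against 120 TPM) and Irf4 (21.7 against 76.4 TPM) made up most of the sum, and Tnfrsf17 was at most at 0.19 TPM in any pool. The part of other cells in the results was not tested. In these bulk samples, a lower value could come from fewer cells that express a gene or from less of its RNA per cell, and the 2 cannot be told apart.

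All 9 genes were expressed in every pool, at between 24.3 and 158 TPM. The populations were compared with limma on log2(TPM + 1) across the 12785 genes that reached 1 TPM in at least 3 pools, with Benjamini-Hochberg adjustment over all of them. At an adjusted p under 0.05, 5 of the 9 genes were higher in GC B cells (Smarca4, Hdac3, Kdm6a, Kdm1a and Setd2), 1 was lower (Arid1a), and 3 passed in neither direction (Crebbp, Ep300 and Ncor1). The populations differ widely, so these counts stand against a high background: 35.5% of all genes tested were higher in GC B cells and 30.1% were lower. The 3 GC pools all lay above the 3 naive pools for 5 of the 9 genes, against 37.8% of all genes, and all below them for 1 of the 9, against 32.8% of all genes. The median log2 fold change (GC minus naive) was 0.19 for the 9 genes and 0.031 for all genes tested. The p-values measure only the spread between these pools. For genes at low TPM, the 1 added before the log makes the log2 fold change smaller than the ratio of the means gives.

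**Figure D1:**
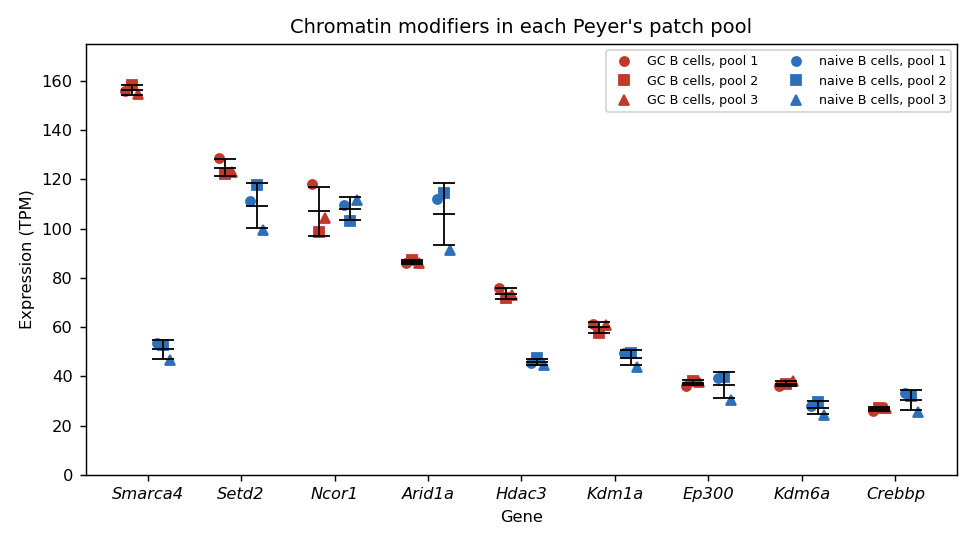
Expression of the 9 genes in TPM (linear vertical axis) in each of 3 GC pools (red) and 3 naive pools (blue), with genes ordered by their GC mean; black bars are the mean and SD of each population. Smarca4 stands apart, with GC pools between 155 and 158 TPM and naive pools between 46.7 and 53.7 TPM, and naive pool 3 is the lowest naive value for 8 of the 9 genes.

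The remodeler subunits held the largest rise and the only fall. Smarca4 (ENSMUSG00000032187) measured 156, 158 and 155 TPM in GC replicates 1, 2 and 3 and 53.7, 52.6 and 46.7 TPM in the naive replicates. The ranges were far apart: the lowest GC pool was well above the highest naive pool. Its mean was 3.07 times as high in GC B cells (156 ± 1.87 against 51.0 ± 3.75 TPM, SD, n = 3 each), a log2 fold change of 1.60 (SE 0.063, limma adjusted p = 2.59e-06). Of all genes tested, 7.96% had a larger rise. Among the 9 genes Smarca4 was preceded by Setd2, Ncor1 and Arid1a in naive B cells, where its pools overlapped those of Kdm1a, and first in GC B cells, above every pool of Setd2.

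Arid1a (ENSMUSG00000007880), which belongs to the same complexes, went the other way by a small amount. It measured 86.2, 87.3 and 85.8 TPM in GC replicates 1, 2 and 3 and 112, 115 and 91.4 TPM in the naive replicates, so the GC pools were close together and all lay below the naive pools. Its log2 fold change was -0.28 (SE 0.09, limma adjusted p = 0.0306). The call rested on the full set of pools: without GC replicate 1, 2 or 3 the limma adjusted p was 0.0751, 0.0664 or 0.0773, and without naive replicate 1 or 2 it was 0.0938 or 0.0882. Without naive replicate 3 the log2 fold change was -0.39 (adjusted p = 0.000752).

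The sequences before the start sites are shown for the gene with the largest rise, for Smarca2, the related gene that fell (values below), for Arid1a and for the demethylase gene Kdm1a, so that the regions these transcripts start from can be set side by side. They are RefSeq sequences on GRCm38.p6, the mouse build of the expression table, and run up to the first base of the annotated gene, whose own bases were left out. Smarca4 spans chr9:21616106-21704230 on the plus strand, and its sequence is chr9:21615919-21616105. That of Smarca2 is chr19:26604910-26605072 (plus strand), that of Arid1a chr4:133756770-133757019 (minus strand) and that of Kdm1a chr4:136602788-136602973 (minus strand). Arid1a has 2 RefSeq windows, of which the one before the annotated gene is shown. Capitals mark the letters of any of 8 short motifs that lie wholly within the printed bases, searched on both strands.
Smarca4: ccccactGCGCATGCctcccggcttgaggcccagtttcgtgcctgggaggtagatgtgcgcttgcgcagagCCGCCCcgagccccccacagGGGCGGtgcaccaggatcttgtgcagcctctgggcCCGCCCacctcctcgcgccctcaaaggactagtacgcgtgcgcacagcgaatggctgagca
Smarca2: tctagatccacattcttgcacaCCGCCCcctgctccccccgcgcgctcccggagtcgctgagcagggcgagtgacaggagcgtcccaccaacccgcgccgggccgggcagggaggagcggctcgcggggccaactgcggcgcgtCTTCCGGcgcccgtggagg
Arid1a: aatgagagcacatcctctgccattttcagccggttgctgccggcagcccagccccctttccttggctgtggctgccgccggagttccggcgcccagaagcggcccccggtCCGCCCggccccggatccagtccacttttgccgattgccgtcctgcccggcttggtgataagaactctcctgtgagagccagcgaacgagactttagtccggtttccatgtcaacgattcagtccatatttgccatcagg
Kdm1a: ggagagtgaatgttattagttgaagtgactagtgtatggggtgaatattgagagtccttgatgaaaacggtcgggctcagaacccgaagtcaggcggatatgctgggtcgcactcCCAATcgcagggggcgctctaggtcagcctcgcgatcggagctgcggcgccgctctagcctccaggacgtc

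In the full windows of 250 bases before the start, Smarca4 held the NRF1 motif GCATGCGC 2 times, 1 of which starts in the last bases printed above, continues into those left out and is not in capitals, and the SP motif GGGCGG 3 times. Of all 32851 RefSeq windows of that length, 2.26% held the NRF1 motif and 32.7% the SP motif. Smarca2 held the ETS motif CCGGAAG (6.91% of all windows) and 2 SP motifs, Arid1a held 1 SP motif in the window shown (and 7, with 1 E2F motif, in its other window, chr4:133753986-133754235), and Kdm1a held the NFY motif ATTGG (33.8% of all windows), read here as CCAAT. None of the 4 windows of the sequences shown held the E2F motif GCGGGAA, the CREB motif TGACGTCA, the MYC motif CACGTG or the BCL6 motif TTCCTAGAA, which 3.82%, 1.55%, 6.02% and 0.347% of all windows held. The G+C content was 70.8% in the window of Smarca4, 68.4% in that of Smarca2, 61.2% in that shown for Arid1a and 59.2% in that of Kdm1a. Its median over all windows was 52.4%, and shares among windows of like G+C content were not computed. These are matches of letters only, and binding was not measured here.

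Both demethylases were higher in GC B cells. Kdm6a (ENSMUSG00000037369; chrX:18160862-18279936), which removes methyl groups from lysine 27, measured 36.01, 36.96 and 37.96 TPM in GC replicates 1, 2 and 3 and 27.9, 29.6 and 24.3 TPM in the naive replicates. The populations did not overlap, and the mean was 1.36 times as high in GC B cells (log2 fold change 0.43, SE 0.084, limma adjusted p = 0.00405). Kdm1a (ENSMUSG00000036940), also called LSD1, measured 61.4, 57.4 and 60.9 TPM in GC replicates 1, 2 and 3 and 49.4, 49.3 and 44.0 TPM in the naive replicates. These ranges did not overlap either, with a mean 1.26 times as high (log2 fold change 0.33, SE 0.066, limma adjusted p = 0.00461). Both stayed called but were smaller under some settings: the log2 fold change of Kdm6a was 0.22 after a correction for G+C content and transcript length, and that of Kdm1a was 0.20 with quantile normalization.

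The Hdac3 gene (ENSMUSG00000024454), which encodes the catalytic deacetylase of the NCoR corepressor, measured 75.9, 71.9 and 73.0 TPM in GC replicates 1, 2 and 3 and 45.6, 47.3 and 44.8 TPM in the naive replicates. Its mean was 1.60 times as high in GC B cells, with no overlap between the populations (log2 fold change 0.67, SE 0.05, limma adjusted p = 4.72e-05), and 22.6% of all genes tested had a larger rise. Ncor1 (ENSMUSG00000018501), the scaffold on which Hdac3 is activated, did not pass the test. It measured 118, 98.5 and 104 TPM in GC replicates 1, 2 and 3 and 110, 103 and 112 TPM in the naive replicates, which overlapped widely. Its log2 fold change was -0.019, with a 95% interval from -0.20 to 0.17 (limma adjusted p = 0.845). The upper end of this interval lies below the log2 fold change of Hdac3.

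Neither acetyltransferase gene passed the test. Crebbp (ENSMUSG00000022521), often mutated in follicular lymphoma, measured 25.7, 27.1 and 27.2 TPM in GC replicates 1, 2 and 3 and 33.3, 32.1 and 25.6 TPM in the naive replicates. Naive replicates 1 and 2 were above every GC pool and the third, naive replicate 3, was below them all. The log2 fold change was -0.17, with a 95% interval from -0.43 to 0.088 (limma adjusted p = 0.206), and without naive replicate 3 it was -0.28 and passed (adjusted p = 0.0107). Ep300 (ENSMUSG00000055024), its paralogue, measured 36.2, 38.0 and 37.8 TPM in GC replicates 1, 2 and 3 and 39.4, 39.9 and 30.3 TPM in the naive replicates. The same naive pool lay below the rest, and the log2 fold change was 0.041 with a 95% interval from -0.23 to 0.31 (limma adjusted p = 0.772). It was -0.085 without naive replicate 3 (adjusted p = 0.218).

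Setd2 (ENSMUSG00000044791; chr9:110532500-110618633), which places the third methyl group on lysine 36, measured 129, 122 and 123 TPM in GC replicates 1, 2 and 3 and 111, 118 and 99.5 TPM in the naive replicates. The ranges did not overlap, and the mean was 1.14 times as high in GC B cells (log2 fold change 0.19, SE 0.069, limma adjusted p = 0.048). This call was close to the threshold. Without GC replicate 1, 2 or 3 the limma adjusted p was 0.133, 0.0841 or 0.0924, without naive replicate 1 or 3 it was 0.0875 or 0.0743, and with the replicate number as a block it was 0.0654. Quantile normalization gave a log2 fold change of 0.057 (adjusted p = 0.394), and a correction for G+C content and transcript length gave -0.035 (adjusted p = 0.5).

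**Figure D2:**
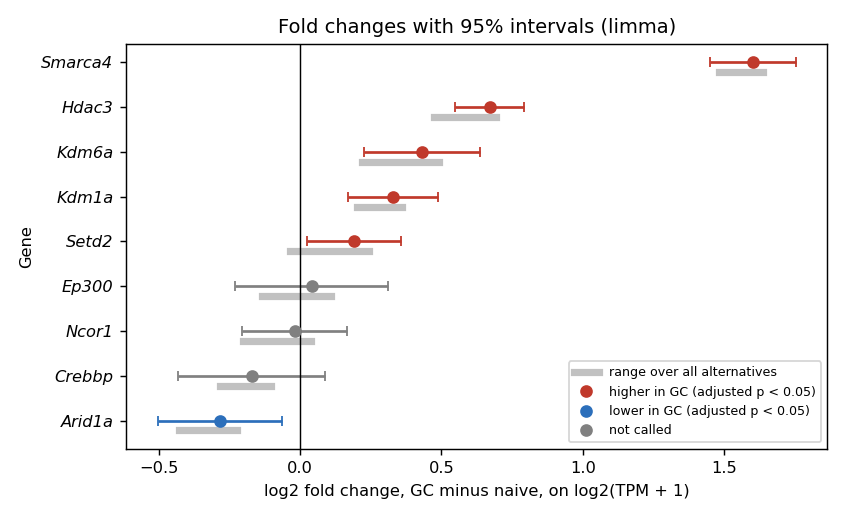
Log2 fold change (GC minus naive, on log2(TPM + 1), horizontal axis) of each of the 9 genes with its 95% limma interval (points and thin bars), and the range of the value over all alternative settings (grey bars). The intervals of Smarca4, Hdac3, Kdm6a, Kdm1a and Setd2 lie above 0 and that of Arid1a below it, and the grey bars of Setd2, Ep300 and Ncor1 cross 0.

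Naive replicate 3 stood apart from its partners at long transcripts. Relative to the naive mean, the median gene with a transcript of at least 6000 bases had a log2 deviation of -0.126 in that pool (1135 genes), while the median gene under 1500 bases was at 0.02 (1995 genes). The 9 genes had a median of -0.132 in the same pool. Most of them are long: the longest annotated coding transcript (NCBIM37 annotation) had 9037 bases for Ncor1, 8749 for Ep300, 8350 for Setd2, 8190 for Arid1a and 7507 for Crebbp, against 3028 for Kdm1a and 2004 for Hdac3. The single genes did not all follow length. Ncor1, the longest, was highest in naive replicate 3 (112 TPM, against 110 and 103 TPM in naive replicates 1 and 2). The shorter Kdm1a and Hdac3 were lowest there, at 44.0 and 44.8 TPM. In naive replicates 1 and 2 the 9 genes had medians of 0.055 and 0.088, and their medians in the GC pools were between -0.01 and 0. The part of transcript length in the fold changes was addressed only by the correction for G+C content and length. Smarca4, Hdac3, Kdm6a and Kdm1a passed the test with any 1 pool left out.

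By level, the 9 genes fell into tiers that differed between the populations. In GC B cells the order was Smarca4, Setd2, Ncor1, Arid1a, Hdac3, Kdm1a, Ep300, Kdm6a and Crebbp, and of the neighbours in that order only Ep300 and Kdm6a had overlapping pools. In naive B cells Setd2, Ncor1 and Arid1a came first with means of 109, 108 and 106 TPM, each overlapping its neighbour. Smarca4, Kdm1a and Hdac3 followed at 51.0, 47.6 and 45.9 TPM, and Ep300, Crebbp and Kdm6a at 36.5, 30.4 and 27.2 TPM. The lowest of the 9, Crebbp, was still above 58.4% of the genes tested in GC B cells, and Smarca4 was above 92.3% of them there and above 76.6% in naive B cells.

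Many of these proteins have a close relative that can take the same place, so such genes were set beside a paralogue in the same pool. The share of a gene in the summed TPM of the pair does not change with a factor common to the whole pool. BAF complexes hold either Smarca4 or Smarca2 (BRM) as their motor. Smarca2 (ENSMUSG00000024921) measured 28.5, 26.8 and 34.2 TPM in GC replicates 1, 2 and 3 and 76.7, 91.6 and 78.1 TPM in the naive replicates, a log2 fold change of -1.43 (SE 0.112, limma adjusted p = 5.86e-05). Smarca4 thus made up 84.5%, 85.5% and 81.9% of the pair in the GC pools and 41.2%, 36.5% and 37.4% in the naive pools. The more abundant of the 2 motor transcripts was Smarca2 in every naive pool and Smarca4 in every GC pool. The sum of both was 186 ± 2.48 TPM in GC B cells and 133 ± 9.94 TPM in naive B cells (SD, n = 3 each).

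The lysine 27 demethylases switched order as well. Kdm6b (ENSMUSG00000018476), known as JMJD3 and induced by inflammatory signals, measured 11.1, 10.7 and 9.95 TPM in GC replicates 1, 2 and 3 and 33.3, 33.3 and 29.3 TPM in the naive replicates. It was lower in GC B cells, with a log2 fold change of -1.51 (SE 0.084, limma adjusted p = 1.21e-05). Kdm6a was 76.5%, 77.5% and 79.2% of the pair in the GC pools and 45.6%, 47.0% and 45.3% in the naive pools, so that it was the larger part in every GC pool and the smaller in every naive pool. The sum of the pair was 47.6 ± 0.43 TPM in GC B cells and 59.2 ± 4.92 TPM in naive B cells.

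The other pairs kept their order. Crebbp was 41.7% ± 0.134 of its pair with Ep300 in GC B cells and 45.4% ± 0.711 in naive B cells (SD, n = 3 each), with no overlap between the pools, although neither gene passed the test alone. Naive replicate 3, low for both genes, was at 45.8%, as was naive replicate 1. Kdm1a was 84.6% ± 0.477 of its pair with Kdm1b in GC B cells and 78.9% ± 0.275 in naive B cells, and Arid1a was 70.0% ± 1.99 of its pair with Arid1b in GC B cells and 75.6% ± 0.87 in naive B cells. Kdm1b and Arid1b did not pass the test (limma adjusted p = 0.103 and 0.302).

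Hdac3 was compared with the other class I deacetylases, which work in other corepressor complexes or, for Hdac8, outside them. Hdac1, at 271 ± 10.3 TPM in GC B cells and 195 ± 6.56 TPM in naive B cells, was more abundant than Hdac3 in both populations, and Hdac3 made up 21.3% ± 0.487 and 19.1% ± 0.314 of that pair. With Hdac2 its share was 60.2% ± 0.908 in GC B cells and 53.2% ± 0.948 in naive B cells. Hdac8 rose more than Hdac3, by a log2 fold change of 1.83 (limma adjusted p = 1.47e-05), and the Hdac3 share of that pair was 76.5% ± 1.02 in GC B cells and 89.0% ± 1.21 in naive B cells. All 4 class I genes were thus higher in GC B cells. Separate pools were common among single genes: the GC pools all lay above the naive pools for 37.8% of all genes tested and all below for 32.8%. The share over other pairs of genes was not counted. In each of the 8 pairs given here the log2 ratio did not overlap between the populations. Each of them had p = 0.1 in a two-sided exact permutation test over the 6 pools, the smallest value that 3 against 3 pools can give (adjusted p = 0.113 over the 9 pairs tested, of which 1 is not reported here).

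**Figure D3:**
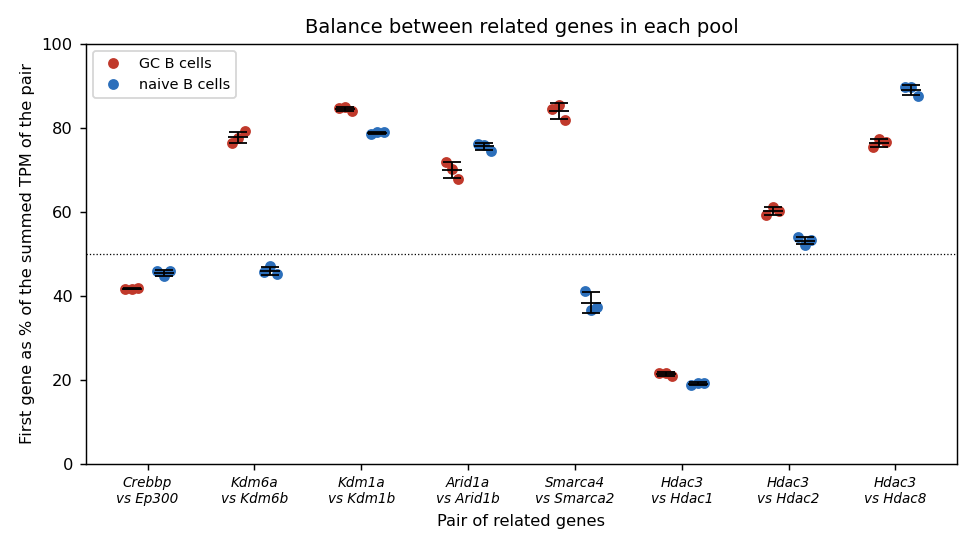
Share of the first gene in the summed TPM of each pair (percent, vertical axis) in 3 GC pools (red) and 3 naive pools (blue), with mean and SD in black and a dotted line at equal parts. Smarca4 and Kdm6a cross the line, from means of 38.4% and 46.0% in naive B cells to 84.0% and 77.7% in GC B cells, and the other 6 pairs stay on one side of it.

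The genes that work with the 9 were then counted in 9 lists of partners, 136 genes in all, of which 128 could be tested. Of these, 58 were higher in GC B cells, 27 were lower and 43 did not pass (over all genes tested, 35.5% were higher and 30.1% lower, the background for each list that follows), and their median log2 fold change was 0.16, against 0.031 over all genes tested. The counts depended on the setting. With quantile normalization, 48 partner genes were higher and 38 lower. Over all genes tested, that setting gave 4088 higher and 4455 lower, against 4540 and 3852 in the main fit. FPKM as deposited gave 54 and 34 partner genes, and leaving out naive replicate 2 gave 59 and 21. Higher partner genes outnumbered lower ones in every setting run for them. The correction for G+C content and length was not among these settings. Hdac1 and Hdac2 stand in 2 of the lists. The lists were drawn up with earlier results of these data known, so that their counts are descriptions.

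Among 22 other BAF and PBAF genes tested, 14 were higher in GC B cells and 7 did not pass, and Smarca2 was the only one lower (median log2 fold change 0.29). Smarcc1, a core scaffold subunit, was at 78.6 ± 3.69 TPM in GC B cells and 20.9 ± 1.08 TPM in naive B cells (log2 fold change 1.86, limma adjusted p = 1.58e-06). Bcl7a, a subunit mutated in lymphoma, had a log2 fold change of 2.04, from 35.6 ± 1.92 to 149 ± 6.77 TPM (adjusted p = 8.97e-07). Bicra, which belongs to the noncanonical BAF complex and not to those that hold Arid1a, had a log2 fold change of 1.48.

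Of 12 genes of NCoR corepressors, 6 were higher, 3 were lower and 3 did not pass. Bcl6, the repressor that recruits them, measured 242, 250 and 258 TPM in GC replicates 1, 2 and 3 and 49.0, 51.6 and 46.9 TPM in the naive replicates (log2 fold change 2.32, limma adjusted p = 3.34e-07). Its rise was larger than that of Hdac3, and Bcl6 is itself a marker of the GC state. Hdac9 and the subunit Tbl1x were higher, by log2 fold changes of 1.49 and 0.75, and Hdac5, the subunit Gps2 and the repressor Zbtb7a were lower, by -0.96, -0.48 and -0.31. Of the 10 other deacetylases, 4 were higher and 3 were lower: Hdac10, Hdac11 and Sirt7, with log2 fold changes of -1.19, -1.19 and -0.66.

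Kdm1a acts with the CoREST scaffold and with the repressors Gfi1 and Gfi1b. Of 14 such genes, 7 were higher, 4 were lower and 3 did not pass (median log2 fold change 0.23). The scaffold Rcor1 was at 41.0 ± 1.98 TPM in GC B cells and 18.7 ± 1.23 TPM in naive B cells (log2 fold change 1.09, limma adjusted p = 3.06e-05). Its relative Rcor2 had a log2 fold change of 2.52, and its mean was 9.92 times as high in GC B cells (11.5 against 1.16 TPM). Gfi1b measured 4.59, 4.40 and 6.23 TPM in the GC replicates, and in the naive pools it was listed at 0, 0 and 0.09 TPM. Gfi1 was near the lower limit of measurement and slightly lower in GC B cells (log2 fold change -0.66, adjusted p = 0.0435), and the subunits Phf21a and Zmym2 were lower as well, by -1.005 and -0.58.

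Among 17 other lysine demethylases, 3 were higher, 5 were lower and 9 did not pass, with a median log2 fold change of -0.062. The rises were small, between 0.30 for Kdm4a and 0.42 for Kdm4c. The falls ran from a log2 fold change of -0.26 for Jmjd1c and -0.34 for Kdm3a to larger ones. The lysine 4 demethylase Kdm5b was at 1.06 ± 0.438 TPM in GC B cells and 8.98 ± 0.925 TPM in naive B cells (log2 fold change -2.29, limma adjusted p = 5.58e-05), and Kdm7a and Kdm6b had log2 fold changes of -1.90 and -1.51. Kdm6a is also a subunit of the KMT2C and KMT2D complexes. Of 16 KMT2 complex genes, 8 were higher, 3 were lower and 5 did not pass. Kmt2d, itself often mutated in these lymphomas, measured 32.5, 31.5 and 31.7 TPM in GC replicates 1, 2 and 3 and 36.2, 37.3 and 26.8 TPM in the naive replicates. It did not pass the test (log2 fold change -0.049, limma adjusted p = 0.759) and, like Crebbp and Ep300, was lowest in naive replicate 3. Paxip1, a subunit shared by both complexes, had a log2 fold change of 1.60, and Kmt2c, the alternative enzyme to Kmt2d, one of -0.64 (adjusted p = 0.00126). Of the enzymes of other KMT2 complexes, Kmt2a had a log2 fold change of 1.14 and Setd1b one of -2.39.

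Beside Setd2, 14 genes that place or read lysine 36 methylation were tested, of which 8 were higher, 2 were lower and 4 did not pass (median log2 fold change 0.28). Nsd2, which places 2 methyl groups on lysine 36, was at 89.0 ± 1.79 TPM in GC B cells and 10.0 ± 1.06 TPM in naive B cells (log2 fold change 3.03, limma adjusted p = 6.55e-07). Some readers of the mark also stood far from 0. Phf19 had a log2 fold change of 4.04 and Psip1 one of 2.56, while Zmynd11, which reads lysine 36 methylation on the histone variant H3.3, measured 1.81, 1.16 and 2.47 TPM in GC replicates 1, 2 and 3 and 106, 101 and 82.1 TPM in the naive replicates (log2 fold change -5.14, adjusted p = 2.13e-06). Phf1, a relative of Phf19, had a log2 fold change of -2.78.

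Of 13 factors that bring CBP and p300 to DNA or compete for them, 6 were higher, 3 were lower and 4 did not pass. Mef2b, a transcription factor mutated in GC lymphomas, measured 347, 254 and 413 TPM in the GC replicates and was listed at 0.12, 0 and 5.65 TPM in the naive pools. Myb and the CBP-binding protein Cited2 had log2 fold changes of 2.35 and 1.34, and Stat6, the transducer of interleukin signals, and the coactivators Crtc3 and Crtc2 had values of -1.18, -0.80 and -0.57. The mean of Myb was 8.74 times as high in GC B cells (9.88 against 1.13 TPM). Of 12 other acetyltransferases, 4 were higher, 3 were lower and 5 did not pass, with a median of 0.054. Hat1, which acetylates newly made histone H4, was at 124 ± 7.48 TPM in GC B cells and 29.9 ± 1.88 TPM in naive B cells (log2 fold change 2.02, limma adjusted p = 1.58e-06). The remaining changes of this list were smaller, from -0.50 for Kat6b to 0.92 for Ncoa1.

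**Figure D4:**
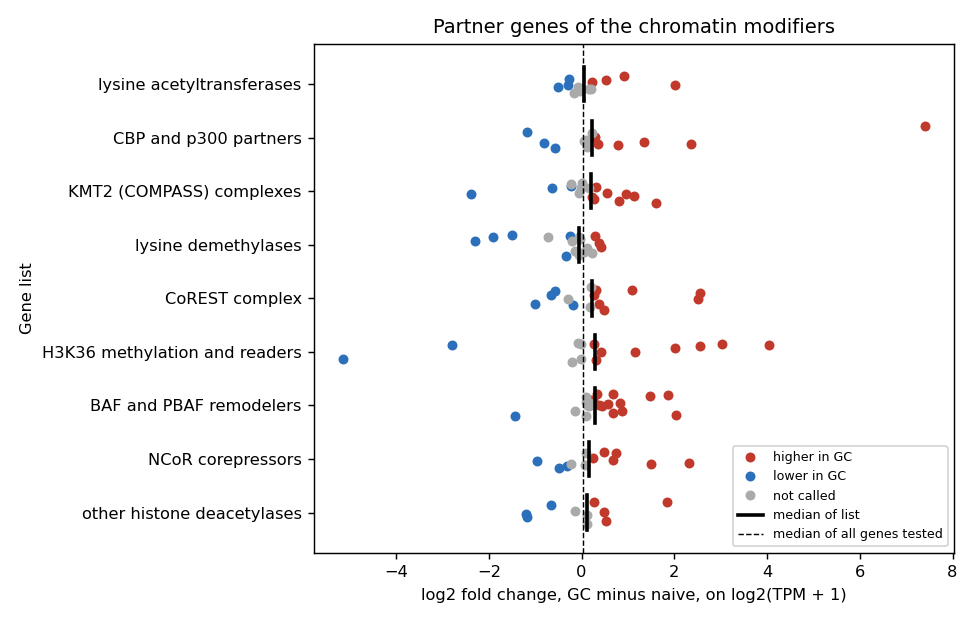
Log2 fold change (GC minus naive, on log2(TPM + 1), horizontal axis) of each partner gene tested, in 9 lists (vertical axis); red and blue points passed the test as higher or lower, grey points did not, black bars are list medians and the dashed line is the median of all genes tested. List medians lie between -0.062 for the demethylases and 0.29 for the BAF and PBAF genes, while single genes range from -5.14 (Zmynd11) to 7.41 (Mef2b).

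For each of the 9 genes, the gene with the most similar pattern over the 6 pools was taken by Pearson's r of log2(TPM + 1), which takes no account of level or of the size of a change. The pools fall into the 2 populations, so a high r mostly reflects a shared difference between them. For Smarca4 this was Cpsf2 (r = 1.0 after rounding), and 3045 genes had an r above 0.95. For Hdac3 it was Vwa3b (r = 0.9997, with 2982 genes above 0.95), though at other levels. Vwa3b measured 10.2, 7.82 and 8.49 TPM in GC replicates 1, 2 and 3 and was listed at 0, 0.23 and 0 TPM in the naive replicates. Kdm1a lay closest to Abl2 (r = 0.999) and Kdm6a to Myo5a (r = 0.9984). Where the populations overlapped or differed little, fewer genes were as close. Arid1a had 181 such genes, led by Ssh2 (r = 0.9976), Setd2 had 116, led by Baz2b (r = 0.989), Crebbp had 43, led by Herc2 (r = 0.9939), Ep300 had 28 and Ncor1 had 3.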

How the data were processed

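Per the labels and the methods of the study, sequencing libraries were prepared from total RNA with a NEB NEXT Ultra kit, and the submitters' processing notes name CASAVA 1.8, FastQC, cutadapt 1.9, RSEM 1.2.25 and edgeR. The authors quantified reads on the mouse transcriptome with RSEM and deposited FPKM for 39179 identifiers and 6 pools, with 2 decimals. FPKM depends on the transcript lengths assigned by RSEM, and strand was not stated, so that antisense reads cannot be told apart. The table holds no counts, and depth was not estimated here; precision was judged from the spread between pools.

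FPKM was rescaled to TPM per pool, and log2(TPM + 1) was tested with limma 3.58.1 in R 4.3.3 (lmFit, eBayes with trend) on genes of at least 1 TPM in at least 3 pools, two-sided, with a call at an adjusted p under 0.05. Python 3.11.15, pandas 2.3.3, scipy 1.17.1 and matplotlib 3.10.9 were used for the rest, including the exact permutation tests of log2 ratios. The fit was also run on simulated data with independent noise and a small set of genes raised in the GC pools. That setting does not cover the wide differences seen here or the deviation of naive replicate 3 at long transcripts. Symbols came from the NCBIM37 annotation, and 16 of 134 matched partner genes by an unambiguous RefSeq synonym. Of the 136 listed, Hdac4 and Bicral were not matched. Promoter windows came from RefSeq (GRCm38.p6), which had 1 window for 6 of the 9 genes and 2 windows for Arid1a and Ncor1; none was used for Hdac3. Named partners are, in each list, up to 3 called genes with the largest fold change in each direction, and those that complete a small count. Some genes that fall under this rule are not reported here. Members and lists were chosen with earlier results of these data known. The alternatives were other pseudocounts (0.1 and 0.01), other filters, FPKM as deposited, quantile and median-ratio scaling, a replicate block, limma without trend, leaving out each pool and, chosen after seeing the data, a correction for G+C content and transcript length.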

Additional observations from a re-analysis of the deposited data

How the results depend on the processing

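Across 17 alternatives and 22 results, 263 of 298 recomputed values kept their direction and their side of the threshold, or for counts stayed within 1.5 times. This total includes the log2 ratios of the pairs, whose permutation p cannot be under 0.1, so that their side of the threshold was fixed in advance. Only their direction could change, and it was kept in every alternative run for them. Smarca4, Hdac3, Kdm6a and Kdm1a were called in each of them, though the log2 fold change of Kdm6a was 0.22 after a correction for G+C content and transcript length (0.431 without it) and that of Kdm1a 0.203 with quantile normalization (0.329 without it). Setd2 kept its direction but not its call with FPKM as deposited (log2 fold change 0.139), without trend, without a filter and with the replicate block (0.191 in each), and with quantile normalization (0.057), and reversed with the correction for G+C content and length (-0.035, with and without the block); it ranged from 0.125 to 0.244 when 1 pool was left out. That correction could be made for 86.3% of the genes tested and moved their median log2 fold change by -0.12, to -0.078, so its values for single genes are read against that shift. Arid1a was not called without a filter (-0.284), and ranged from -0.386 to -0.224 without 1 pool. Crebbp was called lower after the correction (-0.201, adjusted p = 0.0323 in limma), but not when that correction had the replicate block (adjusted p = 0.0548 in limma), and without naive replicate 3, and ranged from -0.284 to -0.101 without 1 pool. Ep300, never called, reversed with FPKM as deposited (-0.01), the correction (-0.133, with and without the block) and quantile normalization (-0.052), and ranged from -0.085 to 0.108 without 1 pool; Ncor1, never called, ranged from -0.091 to 0.039 without 1 pool, and was at -0.202 after the correction and -0.16 with quantile normalization. The number of the 9 genes called lower was 2 after the correction (1 with the block) and 0 without a filter, and between 0 and 2 without 1 pool, and the number called higher was between 4 and 5. The cause of these changes was not tested. The sources do not state whether same-numbered pools came from the same mice, and the main comparison assumed no pairing. The correlations of the deviations of same-numbered pools from the group means were 0.083, 0.022 and 0.046. Each GC pool correlated best with the naive pool of its own number. Naive replicate 2 correlated slightly better with GC replicate 3 (0.03) than with GC replicate 2 (0.022). Without the correction, the replicate block changed no call among the 9 genes other than that of Setd2, and over all genes it gave 4342 higher and 3618 lower, against 4540 and 3852 without it. The 3 pools per population limit the precision, and the table gives no counts from which counting error could be taken.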
